A study of Mus musculus with 6 samples.

Results

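KLF2 binding sites were examined along mouse chromosome 11, which carried 594 of the 6602 anti-GFP peaks listed for large cavity macrophages (LCMs), or 9.0% of the list. The members are all listed peaks with chromosome 11 in the first column, with no selection on any measured value. CUT&RUN tethers a nuclease to an antibody, and the DNA that it cuts loose around the bound target is sequenced. LCMs were sorted from the peritoneal cavity of GFP-KLF2 knock-in mice, in which KLF2 made from its own locus carries GFP, and each sample was treated with an antibody to GFP or with rabbit IgG as the background control. The 6 libraries, 3 with anti-GFP and 3 with IgG, were paired across 3 individual mice, and all animals carried the same knock-in. The antibody therefore reads the fusion protein, and a mouse without GFP was not among the samples. The stated sequencing depth was 3000000 to 5000000 paired ends per library. The authors' peak list gives the start and end of each peak in the GRCm39 build and holds no signal, score or value of a single library. No spread between mice, and hence no test, can be attached to any count of peaks given here.

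KLF2 is a zinc finger transcription factor of the Krüppel-like family, whose members bind CACCC boxes and other GC-rich sequences, many of them in promoters and nearby enhancers. LCMs are long-lived macrophages of the serous cavities that respond to retinoic acid, and Rara, the gene for retinoic acid receptor alpha, lies on chromosome 11. Chromosome 11 of the mouse is rich in genes. It holds stretches crowded with broadly used genes, and also families that act in one tissue, such as the keratin genes of epithelia and the olfactory receptor genes of the nasal epithelium.

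Sequence is shown for 3 genes as examples. They are Rara, Polr2a from the bin with the most peaks, and Krt10 from the peak-free stretch next to Rara. They do not stand for the other genes of these bins, which were not compared. The choice of Polr2a and Krt10 was made after the bins had been examined. The sequences are the 250 bases before an annotated start, taken by gene symbol from a RefSeq promoter table of GRCm38.p6, and they are not the sequences of the peaks, since the peaks are in another build. Capitals mark CACCC and CCGCCC on either strand (GGGTG and GGGCGG on the other), and these sites can share bases. Rara has 4 starts in the table, of which the first and the last are printed. The first lies at chr11:98937446-98937695 on the plus strand.
Rara, first start: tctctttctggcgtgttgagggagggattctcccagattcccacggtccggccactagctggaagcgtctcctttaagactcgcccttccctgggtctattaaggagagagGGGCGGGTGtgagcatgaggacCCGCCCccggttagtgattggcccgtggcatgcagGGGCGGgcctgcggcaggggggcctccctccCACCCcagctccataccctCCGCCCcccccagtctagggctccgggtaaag
The last Rara start lies at chr11:98964622-98964871 on the plus strand.
Rara, last start: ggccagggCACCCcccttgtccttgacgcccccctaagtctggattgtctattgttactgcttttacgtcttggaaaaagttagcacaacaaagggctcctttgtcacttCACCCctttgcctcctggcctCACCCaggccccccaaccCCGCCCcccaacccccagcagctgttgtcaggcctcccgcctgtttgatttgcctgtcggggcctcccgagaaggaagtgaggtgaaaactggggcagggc
Polr2a, which encodes the largest subunit of RNA polymerase II, is shown from chr11:69758634-69758883 on the minus strand.
Polr2a: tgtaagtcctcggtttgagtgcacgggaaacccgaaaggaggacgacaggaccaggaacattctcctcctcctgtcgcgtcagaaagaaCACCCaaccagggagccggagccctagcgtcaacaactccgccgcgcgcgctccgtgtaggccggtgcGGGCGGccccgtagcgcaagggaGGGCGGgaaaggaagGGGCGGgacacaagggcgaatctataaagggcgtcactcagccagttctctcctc
Krt10, which encodes a keratin of the upper epidermis, is shown from chr11:99389365-99389614 on the minus strand.
Krt10: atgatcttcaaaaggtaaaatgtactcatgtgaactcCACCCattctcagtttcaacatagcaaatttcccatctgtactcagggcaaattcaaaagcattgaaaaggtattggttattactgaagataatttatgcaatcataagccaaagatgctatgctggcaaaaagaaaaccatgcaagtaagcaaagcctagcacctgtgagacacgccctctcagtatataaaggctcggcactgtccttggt
The window at the first Rara start held 2 CACCC and 4 CCGCCC matches in a sequence of 65.2% G and C. The window at the last start held 3 CACCC and 1 CCGCCC, with 59.6% G and C. Of the Rara windows not printed, the second held 2 CACCC and 4 CCGCCC. The third held 1 CACCC and 0 CCGCCC, with 58.8% G and C, so the Rara starts were not alike. The Polr2a window held 1 CACCC and 3 CCGCCC, with 62.8% G and C. The Krt10 window held 1 CACCC and 0 CCGCCC, the same counts as the third Rara window, with 39.6% G and C. Among all 32851 promoter windows of the table, 52.0% held CACCC and 32.7% held CCGCCC, so a single match is common. The median over all windows was 52.4% G and C. The longer motif CCACACCC, which contains CACCC, was in 3.2% of all windows and in none of those printed. A match is a description of the letters and does not mark a bound site.

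Peaks were spread unevenly along the chromosome. They ran from 3055962 to 121685452 of GRCm39 and covered 231544 bases in all. In 122 bins of 1 Mb, with a peak counted by its centre, the median was 3 peaks, the quartiles were 0 and 7, and the highest bin held 28. There were 35 bins without a peak, 68 with 1 to 9 and 19 with 10 or more, and these 19 bins carried 307 peaks, or 51.7% of the total. The 10 bins with the most peaks held 34.3% of the peaks and 23.1% of the 1639 protein-coding genes. These bins were picked by the same counts, so no interval is given for their share. Genes were counted by their start in the GENCODE annotation of the older build GRCm38. The distance between listed peaks and these gene starts piled up at 49.9 kb in the first 20 Mb and at 109 kb from 40 Mb onwards, so that the shift between the builds reached at most 10.9% of a bin. Genes near a bin edge can therefore be counted in the wrong bin. Moving each gene down by the shift measured around it, an alternative chosen after seeing the data, put 169 genes (10.3%) in another bin. The 10 densest bins then held 22.3% of the genes. Values with genes so moved are given for some results only, and a gene count or window count given without them can differ too.

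**Figure D1:**
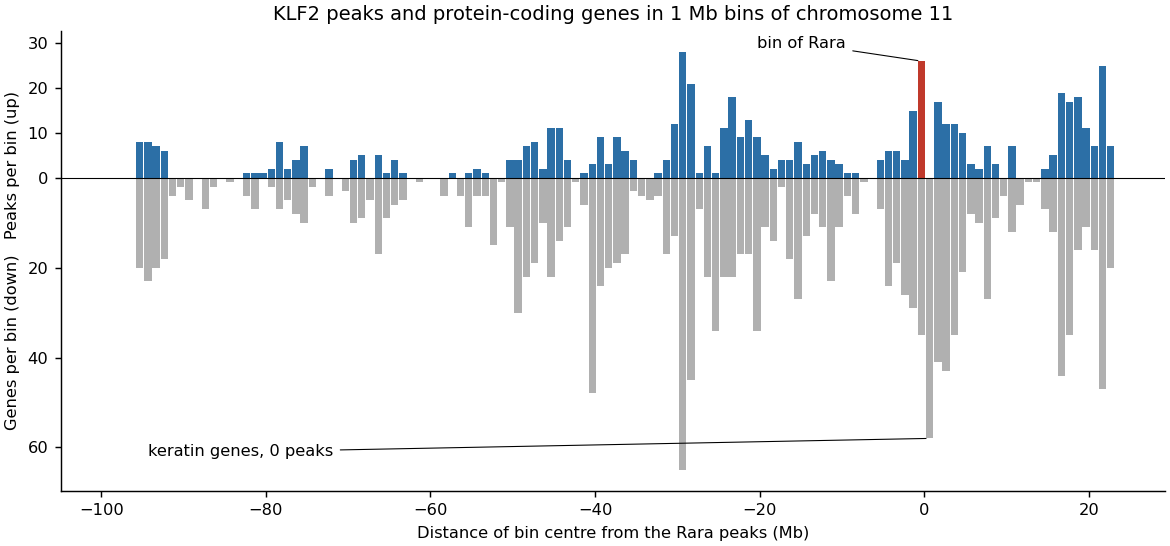
Number of KLF2 peaks (bars up, blue; the bin of Rara in red) and of protein-coding genes (bars down, grey) in each 1 Mb bin of chromosome 11, by the distance of the bin centre from the Rara peaks in Mb. The bin of Rara rises to 26 peaks, and the next bin holds 58 genes and 0 peaks.

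Peaks were concentrated in 3 dense segments, defined as runs of 5 or more bins in which the running mean over 5 bins was at least 1.5 times the mean of the chromosome. The rule was set after the bins had been seen. The segment from 67 to 79 Mb held 134 peaks, or 11.2 per Mb. The segment from 96 to 104 Mb, which includes Rara, held 96 peaks, or 12.0 per Mb, and that from 114 to 122 Mb held 109 peaks, or 13.6 per Mb. Together these 28 Mb made up 23.0% of the bins, 49.1% of the genes and 57.1% of the peaks. Measured per gene, the segments were not alike. The last one carried 54.2 peaks per 100 genes, against 42.5 from 67 to 79 Mb and 33.3 from 96 to 104 Mb. All other bins together carried 30.5 peaks per 100 genes. The first 50 Mb of the chromosome were sparse, with 90 peaks for 300 genes, or 1.8 peaks per Mb, against 7 per Mb over the rest. Per 100 genes the difference was smaller, 30 in the first 50 Mb and 37.6 beyond.

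The genes named here for the bins with the most peaks were taken from the fixed gene lists, and most genes of these bins are not named. Whether genes of any list were more frequent in these bins than in others was not tested. The highest count was 28 peaks from 69 to 70 Mb, a bin of 65 genes that includes Polr2a, the translation factor genes Eif4a1 and Eif5a, the tumour suppressor gene Trp53 and Cd68, which encodes a lysosomal protein of macrophages. The adjoining bin, from 70 to 71 Mb, held 21 peaks and 45 genes, with the lipoxygenase genes Alox12 and Alox15 and the lectin gene Clec10a. The asialoglycoprotein receptor genes Asgr1 and Asgr2 lie at the border of both bins. The 1 Mb windows centred on their starts held 34 peaks each, and 30 with the genes moved.

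Near the distal end, the bin from 120 to 121 Mb held 25 peaks and 47 genes, among them the fatty acid synthase gene Fasn, the actin gene Actg1 and P4hb, which encodes protein disulfide isomerase. From 115 to 116 Mb there were 19 peaks and 44 genes, including the adaptor gene Grb2 and the integrin gene Itgb4. The Cd300 receptor genes of myeloid cells lie around the lower edge of this bin, and with genes moved all of them on the list except Cd300lf and the distant Cd300lg fell in the bin from 114 to 115 Mb, which held 5 peaks. From 117 to 118 Mb there were 18 peaks for 16 genes, and Socs3, an inhibitor of cytokine signalling, was one of these genes. The bin from 75 to 76 Mb held 18 peaks for 22 genes, or 81.8 peaks per 100 genes, the highest ratio among the 32 bins with 20 or more genes. The bin from 100 to 101 Mb, with 17 peaks, held the 3 genes Stat3, Stat5a and Stat5b, which encode transcription factors of cytokine signalling. By their GRCm38 starts it also held 15 keratin genes, and 8 with genes moved. The remaining bins of the 10 densest were those from 116 to 117 Mb, with 17 peaks, and from 97 to 98 Mb, with 15 peaks and the proteasome gene Psmb3.

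The bin that holds Rara, from 98 to 99 Mb, ranked second of the 122 bins with 26 peaks. This was 5.34 times the mean of 4.87 peaks per bin, and it made up 4.38% of the peaks of the chromosome against 2.14% of its genes. Rara itself is annotated in GRCm38 from 98927818 to 98974942 on the plus strand, and the locus of its peaks was taken as 98.83 to 98.85 Mb of GRCm39, a position set from earlier work on the same list. That locus held 6 peaks, so its height is a description. Without these 6 peaks the bin would still hold 20, and only 3 bins would hold more. The locus as set is shorter than the annotated gene, and the 6 peaks are part of a group of 9, described below. Without the whole group the bin would rank lower, and that rank was not computed. Among the 32 gene-rich bins it ranked second in peaks per gene, with 74.3 peaks per 100 genes.

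The peaks at Rara were packed closely. The 6 peaks of the locus lay from 98832018 to 98832225, from 98832409 to 98832984, from 98833100 to 98833340, from 98833476 to 98833843, from 98839130 to 98839609 and from 98843704 to 98844085 of GRCm39. Their widths ran from 208 to 576 bases. The first 4 lay within 2 kb, and the other 2 stood apart at higher coordinates. Taking peaks less than 10 kb apart as one group, the 6 belonged to a group of 9 peaks from 98824603 to 98852151, a span of 27549 bases, which was the largest of the 424 groups and single peaks of the chromosome. The widest peak of this group, at 823 bases, began at 98827575, just below the lower limit set for the locus. The last, of 677 bases, ended at 98852151, above its upper limit. Moved down by the shift of 109 kb measured in its window, the annotated Rara gene would span the whole group of 9. Whether any of these peaks lies at a start of Rara was not determined. Any 6 consecutive peaks of the chromosome spanned a median of 463079 bases, whereas the 6 peaks at Rara spanned 12068 bases, and 3 of 589 such runs, this one included, were as short. All 3 lay in the group of 9, and the shortest run elsewhere spanned 16054 bases. The shortest of the 3, of 9241 bases, began at 98824603 and shared 4 of these peaks.

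A second group lay in the same bin, 6 peaks from 98664090 to 98680143 with widths from 173 to 536 bases. The other 11 peaks of the bin were single ones, from 98094319 to 98727842. Beside Rara, the bin holds genes of the mediator complex (Med1 and Med24), the nuclear receptor genes Thra and Nr1d1, Csf3, which encodes granulocyte colony-stimulating factor, Ikzf3, a zinc finger factor of lymphocytes, and the proteasome gene Psmd3. Which of these genes the second group belongs to was not determined, since no gene positions in the build of the list were used. The neighbour on the 5′ side, from 97 to 98 Mb, held 15 peaks and 29 genes.

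**Figure D2:**
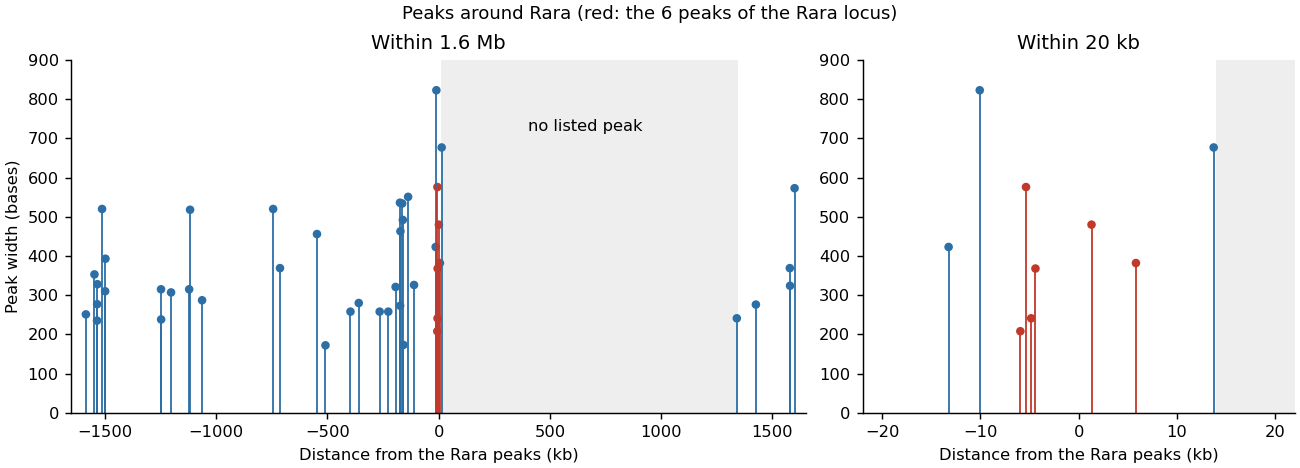
Width in bases of each listed peak against its distance in kb from the middle of the 6 Rara peaks (red), over 1.6 Mb to either side at left and 20 kb at right; the grey area is the stretch without a listed peak. Peaks stand close on the 5′ side and at Rara, and none is listed for the next 1325784 bases.

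On the 3′ side the peaks stopped. After the peak that ended at 98852151, the next in the list began at 100177936, which left 1325784 bases without a listed peak. The bin from 99 to 100 Mb had 58 protein-coding genes, the second highest count of the chromosome, and 0 peaks. Of the 53 genes annotated at least 0.2 Mb inside this stretch, a margin larger than the shift between builds, 32 were keratin or keratin-associated protein genes, Krt10, Krt12, Krt20 and Krt23 among them. Others were Ccr7, which encodes a chemokine receptor of lymphocytes and dendritic cells, and Smarce1, which encodes a subunit of a chromatin remodelling complex. With genes moved by the measured shift, all 50 keratin and keratin-associated genes of the chromosome fell inside the stretch, and the bin from 99 to 100 Mb held 62 genes. The loss of peaks was thus abrupt at the scale of 1 Mb, from 26 to 0 to 17 in consecutive bins.

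In all, 24 stretches of 1 Mb or more had no listed peak, and they added up to 60.3 Mb, or 50.8% of the distance from the first peak to the last. They contained 259 genes at least 0.2 Mb inside by GRCm38 positions, which were 15.8% of the genes of the chromosome. This margin leaves out genes near the ends, whereas the length counts whole stretches. With genes moved by the measured shift and no margin, 374 whole genes lay inside. A stretch without a listed peak may still hold signal below the threshold of the authors, and the depth at these places is unknown. By gene content the stretches were of several kinds. Most had few genes, the longest being 10.3 Mb from 6576036 to 16901361, with 24 genes inside. Ikzf1, a zinc finger factor of blood cell development, was one of them, as were the insulin-like growth factor binding protein genes Igfbp1 and Igfbp3. The second, of 6.16 Mb from 35729497, had 5 genes inside, including Tenm2, and the next, of 4.10 Mb from 109542242, had 10, including Sox9, a regulator of cartilage and testis development. The 3.10 Mb stretch from 23448454 held Rel, which encodes a subunit of NF-κB, and Bcl11a, a repressor of fetal globin. Genes of the stretches that are on no list were named after their values had been seen.

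A few stretches had many genes. The one from 73090284 to 74448494, of 1.36 Mb, had 30 genes inside, 25 of them olfactory receptor genes. The one from 50268079 to 51475075 had 17, of which 5 were olfactory receptor genes, with several zinc finger genes such as Zfp354a. There were 31.3 genes per Mb in the first of these, 21.1 in the second and 57.2 in the stretch beside Rara. All were above the 13.4 per Mb of the whole chromosome. The stretch from 45846290 to 48690866, of 2.84 Mb, held 16 genes, or 6.55 per Mb, which was below the value of the chromosome. Among them were the receptor genes Timd4, Havcr1 and Havcr2. Timd4 encodes a receptor for dying cells that is a surface marker of LCMs. Its bin, from 46 to 47 Mb, had 15 genes and 0 peaks, and it was the only bin with 10 or more genes, other than the keratin bin, that had none. The bin of Icam2, an adhesion molecule gene used to define LCMs, held 7 peaks from 106 to 107 Mb among 27 genes, and whether any of them lies at Icam2 was not determined.

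Bins with more genes held more peaks (Pearson's r = 0.74, Spearman's rho = 0.80 over 122 bins). No p-value is given, since bins share the libraries, the sequencing depth and their place on 1 chromosome. Bins without genes held a median of 0 peaks, those with 1 to 9 genes 1, those with 10 to 19 genes 5.5, those with 20 to 29 genes 7.5 and those with 30 or more genes 14.5. The spread within a class was wide, and in the last class it ran from 0 to 28. Per gene the classes differed less, from 30.3 peaks per 100 genes with 1 to 9 genes to 43.8 with 10 to 19 genes. The 14 bins without a protein-coding gene held 2 peaks in all, and with genes moved there were 12 such bins with 0 peaks. At the other end, the 3 gene-rich bins with the fewest peaks per gene were the keratin bin with 0 peaks, the bin from 73 to 74 Mb with 1 peak for 34 genes and the bin from 58 to 59 Mb with 3 peaks for 48 genes, and the last 2 are bins of olfactory receptor genes. Leaving out the 132 olfactory receptor and keratin genes, a step chosen after seeing the bins, raised Pearson's r to 0.84.

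**Figure D3:**
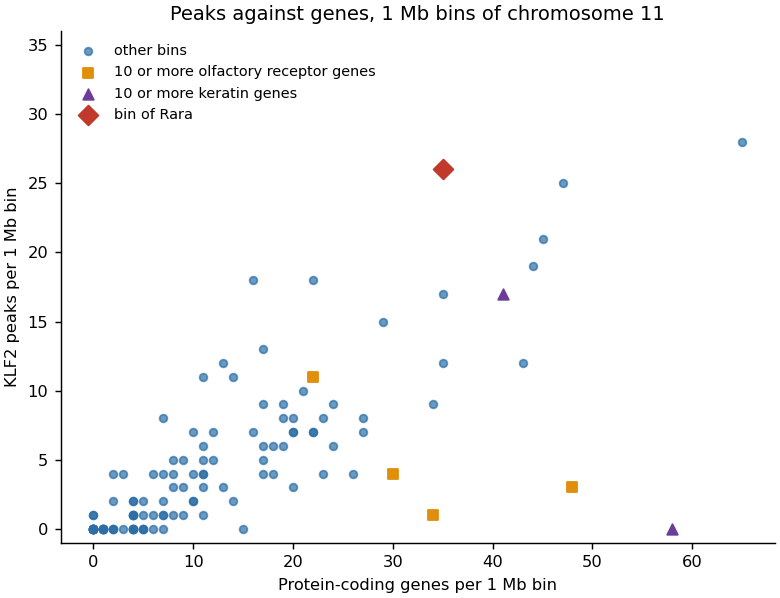
KLF2 peaks against protein-coding genes in the 1 Mb bins of chromosome 11, with 1 point per bin and the bins rich in olfactory receptor genes (squares), rich in keratin genes (triangles) or holding Rara (diamond) marked. Peaks rise with genes (r = 0.74), and the bins of 48 and 58 genes at the lower right hold 3 and 0 peaks.

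Around single genes, lists differed in the number of peaks in the 1 Mb window centred on the gene start. Over all 1639 protein-coding genes the median was 7 peaks, with quartiles of 4 and 13, and 327 genes (19.95%) had no listed peak within 0.2 Mb by GRCm38 positions, against 315 (19.2%) with genes moved by the measured shift. Of these, 275 lacked one by both. These values count nearby peaks and do not assign a peak to a gene, and neighbouring genes share a window. For 24 housekeeping and metabolic genes the median was 15.5 peaks, and 0 of them lacked a peak within 0.2 Mb, or 1, Psmd11, with genes moved. The housekeeping list was filled in part by gene name stems and so also took in Rps6kb1, Psmc3ip and Rpl9-ps1. For 39 macrophage and leukocyte genes it was 12, and 4 genes lacked a nearby peak by either position, namely Timd4, Havcr1, Havcr2 and the integrin gene Itgb3. For 32 signalling and transcription factor genes it was 11.5, from 0 at Ikzf1 and Bcl11a to 27 at Trp53, and 4 lacked a nearby peak, or 3 with genes moved. Socs3 had 25 peaks in its window, Rara 22 and Stat3 19.

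Of the 8 type 2 cytokine and colony-stimulating factor genes, each had 10 or more peaks in its window, with 13 at Il4 and Il13, 14 at Il5, 12 at Irf1, 11 at Il3, 10 at Csf2 and 24 at Csf3. None of them lacked a peak within 0.2 Mb by either position. All except Csf3, including Rad50, sit in neighbouring bins of 11 peaks each, so these values are not independent. The 11 CC chemokine genes had fewer, with a median of 5, and 1 of them, or 0 with genes moved, lacked a nearby peak. There were 3 peaks around Ccl2, Ccl7 and Ccl8, which encode attractants of monocytes, and 6 to 8 around Ccl3, Ccl4 and Ccl5.

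The tissue-restricted families were lower. For the 10 Hoxb genes, which set position along the body axis, the windows held 2 or 3 peaks, and 10 of 10 had no listed peak within 0.2 Mb by either position, although their bin from 96 to 97 Mb held 4 peaks. Of 50 keratin and keratin-associated genes, 32 (64.0%) had none within 0.2 Mb, and 39 (78.0%) with genes moved, with a median of 2 in the window by either position. Of 82 olfactory receptor genes, 52 (63.4%) had none, and 50 (61.0%) with genes moved. Of these, 41 lacked one by both, and the median in the window was 4. The 17 other tissue-restricted genes, mainly muscle myosin, globin and GABA receptor genes, had a median of 5, and 6 of them, or 5 with genes moved, lacked a nearby peak. Among the other tissue-restricted genes Zpbp2, which lies in the bin of Rara, had 26.

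**Figure D4:**
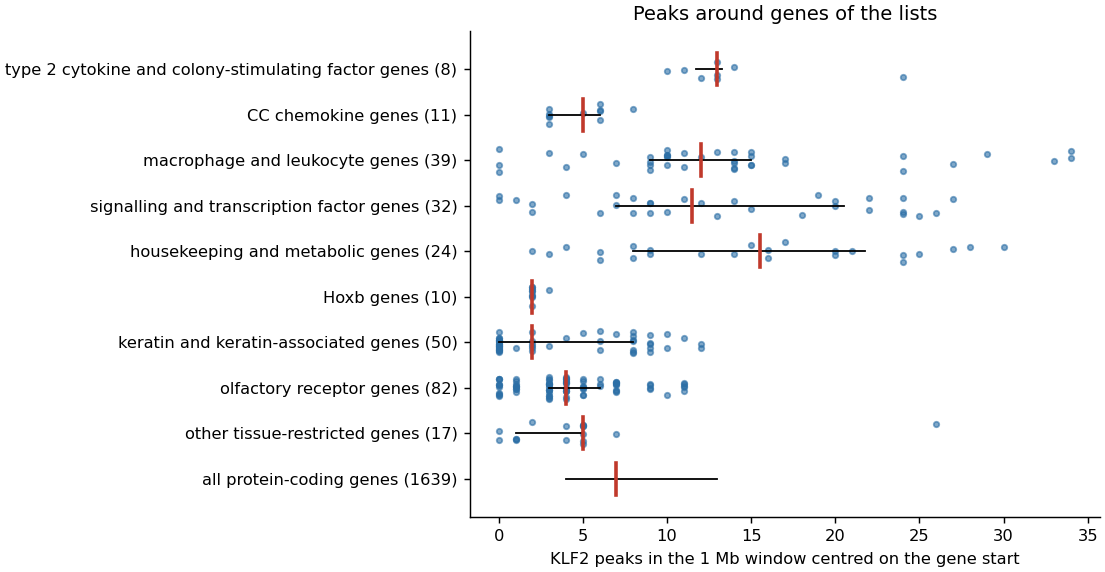
Number of KLF2 peaks in the 1 Mb window centred on the GRCm38 start of each gene, by list (number of genes in parentheses); points are genes, red bars medians and black lines the range between quartiles. Medians run from 2 for Hoxb and keratin genes to 15.5 for housekeeping genes, against 7 for all protein-coding genes.

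Beside the other autosomes, chromosome 11 had the most peaks, 594 against 130 to 549, and ranked 3 of 19 by protein-coding genes. Per 100 genes it carried 36.2 peaks, which ranked 5 of 19, with a median of 30.6 over the others. Per Mb it carried 4.87 peaks on the GRCm38 length and ranked second, just below chromosome 19 with 4.88. It had the smallest share of bins without a peak of any autosome, 28.7%, against 32.3% to 56.0%. It also had the smallest share of peaks in the densest 10% of its bins, 38.6% against 40.8% to 56.2%. Its peaks were more evenly spread than those of the other autosomes by both measures, although its longest empty stretch of 10.3 Mb was above the median of 8.46 Mb. Both measures also depend on the number of peaks per bin, which was not adjusted for. The median of the other autosomes was 2.69 peaks per Mb. Chromosome 7, with the next highest number of peaks, had 549 peaks for 2023 genes, or 27.1 per 100 genes, and 45.2% of its bins were empty. Spearman's rho between peaks and genes over bins was 0.80 on chromosome 11 and 0.50 on chromosome 7. Of 21 autosomal bins with 23 or more peaks, 3 lay on chromosome 11, those from 69, 98 and 120 Mb, and the bin of Rara held rank 11 among 2469 autosomal bins, level with a bin on chromosome 5 and a bin on chromosome 8. Chromosomes are not replicates of a condition, and these ranks are descriptions.

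**Figure D5:**
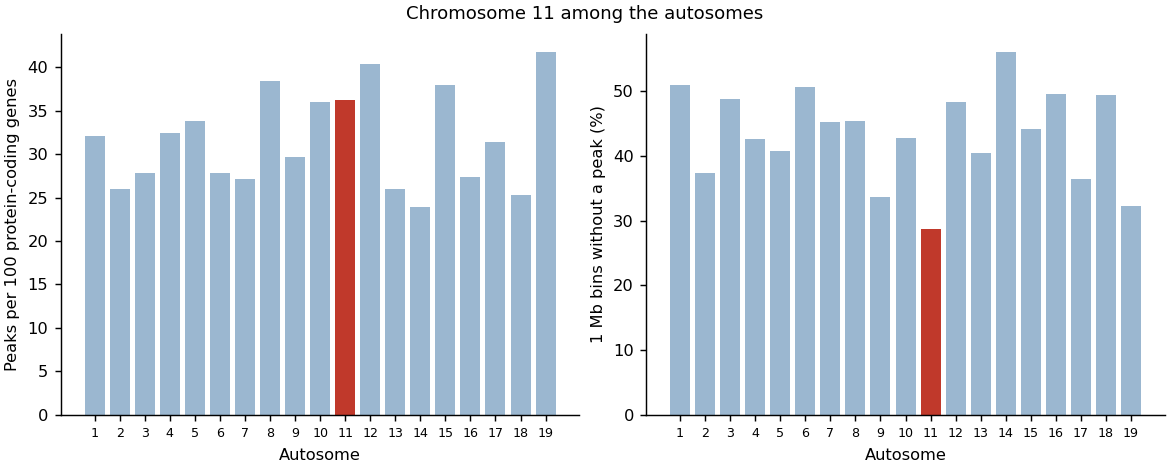
Peaks per 100 protein-coding genes (left) and percent of 1 Mb bins without a peak (right) for each autosome, with chromosome 11 in red. Chromosome 11 stands at 36.2 peaks per 100 genes, rank 5 of 19, and has the lowest share of empty bins, 28.7%.

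Most peaks were of ordinary width. The median width on chromosome 11 was 338.5 bases, with quartiles of 249 and 454, against 325 on the other autosomes, with quartiles of 247 and 440. Peaks wider than 1000 bases numbered 9 (1.52%), against 1.94% on the other autosomes. In bins with 10 or more peaks the median was 350 bases, and in the sparser bins it was 334 bases, a difference small against the distance between quartiles. The widest peak, of 2480 bases, lay from 3134053 to 3136532, close to the first annotated genes of the chromosome. It was wider than any peak of the other autosomes, where the widest had 1899 bases. The gene Sfi1, which encodes a centrosomal protein, is annotated in GRCm38 from 3131850 to 3193463. These positions are of different builds, with a measured shift of 49.9 kb in this part of the chromosome. Whether the peak belongs to Sfi1, and why it is so wide, was not tested. The next widest peaks of chromosome 11 were 1530 bases wide from 20491843, 1503 from 68985823, 1312 from 115365885 and 1164 from 120240595. The narrowest, of 163 bases, began at 69810390 in the bin with the most peaks.

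Neighbouring peaks were a median of 44282 bases apart, with quartiles of 7254 and 141518. Of 593 neighbouring pairs, 170 (28.7%) were less than 10 kb apart, and 59 were less than 500 bases apart. By the 10 kb measure, 309 peaks stood alone, 80 groups held 2 peaks, 26 held 3 and 9 held 4 or more. The largest after that at Rara held 7 peaks from 117832642 to 117860924, in the bin of Socs3. The group of 6 in the bin of Rara came next, followed by 5 peaks from 70537454 to 70560122. The other 5 groups held 4 peaks each, of which 1 lay from 69299238 to 69309361, 1 from 70333143, 1 from 74463789, 1 from 75345272 and 1 from 116733455. All 9 of these groups lay in the 3 dense segments, which held 57.1% of all peaks. The segments were drawn from the same peak counts, to which the groups add, so this overlap is partly built in.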

How the data were processed

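CUT&RUN was performed on sorted LCMs of GFP-KLF2 mice with anti-GFP (3 libraries) or IgG (3 libraries). Per the paper's methods and the submitters' processing notes, the authors trimmed reads with Trim Galore 0.6.7, aligned them with Bowtie2 2.4.2, called peaks with SEACR 1.3 against merged controls and normalized by spiked-in E. coli reads, with the top 1% of peaks reported. The notes name GRCm39 and GRCm38; the methods give GRCm39 for the alignment. How the 3 anti-GFP libraries were combined is not given in the sources used here. The deposited list holds starts and ends in bases, with no score, and 0 columns of per-sample values were left unused. Depth per library is known from the labels alone, and the depth behind a peak is unknown.

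Starts are printed counting from 1. Peaks were counted in bins of 1 Mb by their centre, and genes by their start in GENCODE M21 of GRCm38. No coordinate was converted, and counts near genes were repeated with genes moved down by the measured shift. The shift between builds was read, in windows of 20 Mb, as the distance within 400 kb at which most pairs of peak and gene start lay, and was tested on simulated data. A gene was placed inside a stretch without peaks when it lay at least 0.2 Mb from both ends. Python 3.11.15, NumPy 2.4.6, SciPy 1.17.1 and Matplotlib 3.10.9 were used. The planned results on peaks at gene starts and on motifs in peaks were not run, as they need GRCm39. The promoter table held 77.2% of the protein-coding genes of the chromosome and 57.1% of those in the bin of Rara, so a comparison of motifs or base content between bins would be void and was not made. Named were Rara, members of the gene lists, the 10 densest bins, the bin of Rara with its neighbours, the empty stretches of 1 Mb or more, the 5 widest peaks and the narrowest. The members, the lists and the position of Rara were chosen with earlier results of these data known.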

Additional observations from a re-analysis of the deposited data

How the results depend on the processing

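The share of peaks in the densest 10 Mb, 34.3%, was 33.6% with peaks closer than 500 bases merged, 31.8% with bin edges moved by 0.5 Mb and 35.3% by covered bases, but 27.8% in bins of 2 Mb and 21.2% in bins of 5 Mb, since wider bins average dense with empty sequence. The correlation with genes kept its direction under 12 alternatives, 1 of them chosen after seeing the data, with Pearson's r from 0.73 to 0.89 and Spearman's rho from 0.78 to 0.91, and moving the gene bins by 0.1 or 0.2 Mb either way, which covers the shift between builds, gave r from 0.73 to 0.75. Against the median of the other autosomes, chromosome 11 had 1.19 times the peaks per gene, 1.20 times with close peaks merged and 1.81 times per Mb of length, where its number of genes also counts. The bin of Rara stood at 5.34 times the mean bin (rank 2), 5.02 times with close peaks merged (rank 3) and 4.14 times with moved edges (rank 3). It stood at 2.67 times in bins of 2 Mb (rank 6 of 61) and 2.15 times in bins of 5 Mb (rank 4 of 25), which take in the keratin genes. In peaks per gene it stood at 2.05 times (rank 11 of 108). Empty stretches numbered 24 at 1 Mb or more, 46 at 0.5 Mb and 9 at 2 Mb. No paired analysis was possible because no column holds a value of one library, and leaving out a replicate was not possible either. The median width was 363 bases with close peaks merged. Other distances for peaks at gene starts were not run.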
